A study of Mus musculus with 24 samples.

Results

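The 10 protein-coding genes described here are Acsl6, Neurl3, Aldh2, Flt3, Mbp, Atp1a4, Bicra, Nol4l, Hivep1 and Duox2, which were picked from 53900 counted features because their reads were far more abundant in hm5C RIP than in RIP input. They were matched by Ensembl gene identifier, and all 10 had reads in each of the 4 RIP libraries. The measured values of that contrast chose them, so the RIP values below describe the genes and carry no test.

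The study took mouse embryonic stem cells through 3 kinds of sequencing, of which RIP and CLIP were used here, 12 of its 24 libraries. The hm5C RIP group (2 libraries) is RNA immunoprecipitated for hydroxymethylcytosine from untreated mESCs of strain B6;129, and the RIP input group (2 libraries) is total RNA of such cells, both carried into libraries with a small RNA kit after TRIzol extraction. The TET2 CLIP groups (2 libraries each) came from E14 cells with a His-HA-tagged TET2, clone 65 and clone 75, in which RNA crosslinked to the protein was recovered, and each clone had a CLIP input group (2 libraries). Cells for CLIP and for its input received 500 µM 4-thiouridine for 4 hours and 400 mJ/cm2 of UVB. All cultures, inputs included, were grown with 15% FBS, leukemia inhibitory factor, 3 µM CHIR99021 and 1 µM PD0325901. Each tagged line is a single clone, replicates were described as biological, and no RIP with an unrelated antibody was analysed here.

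TET2 belongs to the TET dioxygenases, enzymes that turn methylcytosine into hydroxymethylcytosine in DNA and, for TET2, also in RNA. In RNA, methylcytosine is best known from transfer and ribosomal RNA. An immunoprecipitation for hm5C recovers RNA that an antibody to the modified base binds, while CLIP recovers RNA that touches a protein, so the 2 assays ask different questions of the same transcripts.

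The genes belong to unlike processes. Acsl6 encodes a long-chain acyl-CoA synthetase, which activates fatty acids and is best known from brain, and Aldh2 the mitochondrial enzyme that oxidises acetaldehyde. Flt3 is a receptor tyrosine kinase of blood progenitors, Mbp a structural protein of myelin, Atp1a4 the sodium pump subunit of sperm, and Duox2 an oxidase that makes hydrogen peroxide in the thyroid. Neurl3 is a ubiquitin ligase of the neuralized family, Bicra a subunit of the noncanonical BAF chromatin remodelling complex, and Hivep1 a zinc finger protein that binds enhancer motifs. Nol4l, a relative of nucleolar protein 4, has a less settled role.

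The sequences at annotated start sites differed in CG content, both between genes and between the starts of Acsl6. RefSeq start-site windows for GRCm38.p6 matched 7 of the 10 genes, with 10 windows in all, and Aldh2, Mbp and Bicra are named only. The stretches printed below lie outside the gene's own span, in the gene's 5′ to 3′ direction, with each CG dinucleotide in capitals. They are Acsl6 on the plus strand at chr11:54303574-54303804, Flt3 on the minus strand at chr5:147400490-147400739, Atp1a4 on the minus strand at chr1:172258425-172258674 and Hivep1 on the plus strand at chr13:42051771-42051898.
Acsl6: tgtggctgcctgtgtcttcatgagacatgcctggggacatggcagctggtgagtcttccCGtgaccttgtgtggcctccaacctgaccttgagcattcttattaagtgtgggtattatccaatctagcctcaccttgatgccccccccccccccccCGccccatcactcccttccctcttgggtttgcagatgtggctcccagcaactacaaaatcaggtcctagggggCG
Flt3: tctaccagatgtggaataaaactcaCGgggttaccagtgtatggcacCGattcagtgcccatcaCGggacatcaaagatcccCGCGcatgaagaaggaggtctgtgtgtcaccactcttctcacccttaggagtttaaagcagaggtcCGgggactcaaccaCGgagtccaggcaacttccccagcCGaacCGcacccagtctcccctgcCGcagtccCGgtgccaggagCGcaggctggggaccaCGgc
Atp1a4: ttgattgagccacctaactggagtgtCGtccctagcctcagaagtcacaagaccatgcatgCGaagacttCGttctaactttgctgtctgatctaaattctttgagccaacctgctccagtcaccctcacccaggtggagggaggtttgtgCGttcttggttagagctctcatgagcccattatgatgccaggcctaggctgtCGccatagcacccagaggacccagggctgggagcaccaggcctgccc
Hivep1: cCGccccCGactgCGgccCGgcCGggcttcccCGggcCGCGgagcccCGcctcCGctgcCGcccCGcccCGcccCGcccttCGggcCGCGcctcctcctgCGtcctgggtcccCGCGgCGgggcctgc
These 4 stretches range from 1.3 CG per 100 bases in Acsl6 to 16.4 per 100 bases in Hivep1, with 2.0 in Atp1a4 and 5.2 in Flt3.

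Over windows of 250 bases, the number of CG was 41 in Hivep1, 32 and 29 at the 2 Nol4l starts, 13 in Flt3, 7 in Neurl3, 6 in Duox2 and 5 in Atp1a4. The 3 Acsl6 starts had 3, 30 and 1. The median of all 32851 windows of that length was 6, with quartiles of 2 and 16. Both Nol4l windows, the Hivep1 window and the Acsl6 window with 30 lay above the upper quartile. Only the Acsl6 window with 1 lay below the lower quartile. The letters TATAAA, on either strand, were found in the Neurl3 window and in 12.4% of all windows. GGGCGG was found in all 3 Acsl6 windows, both Nol4l windows and the Hivep1 window, and in 32.7% of all windows. CCAAT was found at 2 of the Acsl6 starts, in Duox2 and in 33.8% of all windows. A match describes letters only.

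On mm10, by the RefSeq table for GRCm38.p6, the genes lie on 7 chromosomes. Acsl6 (ENSMUSG00000020333) spans chr11:54303805-54364756, Flt3 (ENSMUSG00000042817) chr5:147330741-147400489 and Aldh2 (ENSMUSG00000029455) chr5:121566027-121593824. Neurl3 (ENSMUSG00000047180) spans chr1:36264602-36274674 and Atp1a4 (ENSMUSG00000007107) chr1:172223508-172258424. Bicra (ENSMUSG00000070808) spans chr7:15970671-16048146, Hivep1 (ENSMUSG00000021366) chr13:42051899-42185030 and Mbp (ENSMUSG00000041607) chr18:82475091-82585637. Nol4l (ENSMUSG00000061411) spans chr2:153407461-153530239 and Duox2 (ENSMUSG00000068452) chr2:122279246-122298740. The spans ran from 10073 bp for Neurl3 to 133132 bp for Hivep1. Counts were per gene, so the exon, intron or untranslated region behind a read was not known.

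Depth differed between libraries and sets how closely low values can be read. The hm5C RIP libraries held 1564014 and 2100187 counts, and the RIP input libraries 4641963 and 4889943. TET2 CLIP held 221060 and 223413 counts in clone 65 and 453944 and 254996 in clone 75, while CLIP inputs ranged from 913002 to 4729463. One read in a TET2 CLIP library was worth 2.203 to 4.524 CPM (the per-million share of all counts in that library), against 0.4761 and 0.6394 CPM in hm5C RIP. All 13 embryonic stem cell markers had reads in the RIP table, where they summed to 22.4 and 40.5 CPM in hm5C RIP and to 45.4 and 50.5 CPM in RIP input. In the CLIP table the same markers summed to 1901 to 2682 CPM in TET2 CLIP and to 1835 to 3159 CPM in CLIP input.

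Acsl6 alone made up more than any other feature in both hm5C RIP libraries. It had 862857 and 1272857 counts there, against 11828 and 8176 counts in RIP input. As a share of all counts this was 55.2% (55.1 to 55.3%, exact Clopper-Pearson 95% interval) and 60.6% (60.5 to 60.7%) in hm5C RIP, against 0.255% and 0.167% in RIP input. Such intervals cover counting error only. Acsl6 was the most counted feature of both hm5C RIP libraries and held places 42 and 49 in the RIP inputs, where it was already well counted. It averaged 578880 ± 38448 CPM in hm5C RIP and 2110 ± 619 CPM in RIP input (SD, n = 2 each), a ratio of 274, and its log2 change in the edgeR fit was 7.89. In bulk libraries such as these, fewer cells with a transcript and less transcript per cell cannot be told apart.

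The dominance of Acsl6 set the make-up of the hm5C RIP libraries. Protein-coding genes took 61.7% and 67.3% of hm5C RIP counts, against 8.27% and 8.32% of RIP input counts. With Acsl6 left out of both the genes and the total, the protein-coding share was 14.48% and 17.04% in hm5C RIP and 8.04% and 8.17% in RIP input, so hm5C RIP stayed higher by a smaller margin. All 10 genes together held 55.8% and 61.1% of hm5C RIP counts, against 0.256% and 0.169% in RIP input. The 9 genes other than Acsl6 had 9659 and 10936 counts in hm5C RIP, which is 0.618% and 0.521%, against 72 and 74 counts, or 0.00155% and 0.00151%, in RIP input. Among counts other than those of Acsl6, the 9 genes held 1.38% and 1.32% in hm5C RIP and 0.00156% and 0.00152% in RIP input. Leaving out so large a feature raises the share of every other feature in hm5C RIP. The rise is therefore arithmetic and not particular to the 9 genes.

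**Figure D1:**
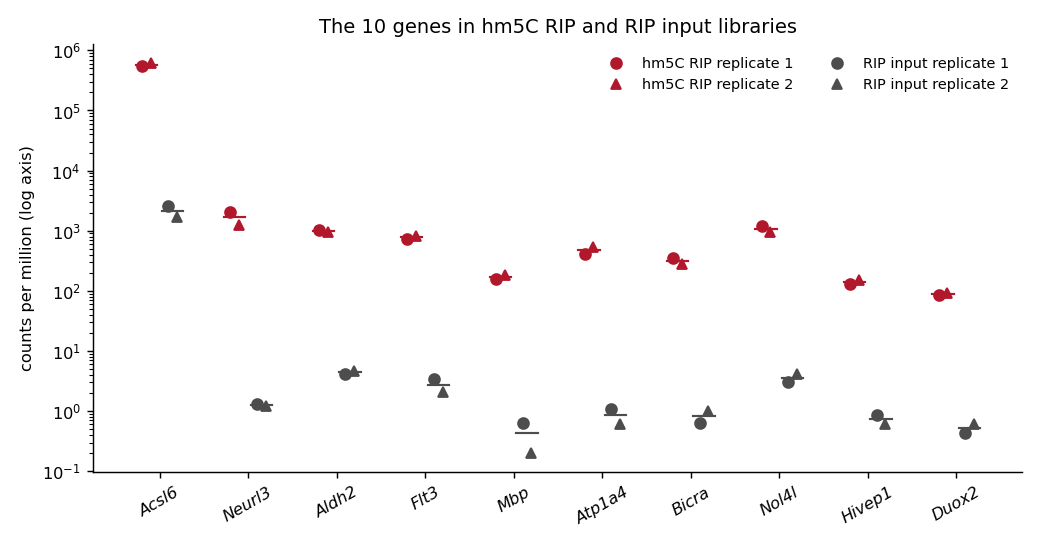
Reads of the 10 genes in each RIP library, in CPM on a log axis, with hm5C RIP and RIP input replicates as separate points and a bar at each group mean. Every hm5C RIP point stands above both input points of its gene, with a ratio of the lower hm5C RIP value to the higher input value that runs from 142 (Duox2) to 958 (Neurl3), and Acsl6 stands apart from the rest in both groups.

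Neurl3, the ubiquitin ligase, had the largest log2 change of the 10 and the widest gap between hm5C RIP replicates. It had 2086 and 1238 CPM in hm5C RIP, against 1.29 and 1.23 CPM in RIP input, which is 6 counts in each input library. Its log2 change was 10.17. The groups were far apart, but the input level rests on few reads.

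Aldh2, Flt3 and Nol4l were the next most counted. Aldh2 had 1038 and 965 CPM in hm5C RIP, against 4.09 and 4.704 CPM in RIP input, a log2 change of 7.63. Flt3 had 740 and 822 CPM in hm5C RIP, against 3.45 and 2.05 CPM in RIP input, a log2 change of 7.94. The enzyme and the receptor thus lay within a narrow band in hm5C RIP, and both had 10 or more counts in each input. Nol4l had 1185 and 937 CPM in hm5C RIP, against 3.02 and 4.09 CPM in RIP input, a log2 change of 8.03, with 14 and 20 input counts.

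Beside Aldh2, an enzyme abundant in liver, reads of liver markers stood out in 1 library. The 5 liver markers summed to 356 counts in hm5C RIP replicate 1 and 3 in replicate 2, against 1 and 0 in RIP input, with Alb (serum albumin) at 283 and 1 in hm5C RIP and 0 in both inputs. Aldh2 itself had 1623 and 2027 counts in the 2 hm5C RIP libraries, and its log2 change was 7.38 without replicate 1. Of the 6 fibroblast markers, Col1a2, a collagen gene, was tested and called higher (log2 change 3.56, edgeR adjusted p = 0.000362), with 50 and 84 counts in hm5C RIP and 13 and 12 in RIP input. The other 5 had at most 8 counts in any RIP library.

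The remaining 5 genes had at most 5 counts in an input library. Atp1a4 had 406 and 538 CPM in hm5C RIP, against 1.08 and 0.614 CPM in RIP input (5 and 3 counts), a log2 change of 8.86. Bicra had 347 and 284 CPM in hm5C RIP, against 0.646 and 1.02 CPM in RIP input (3 and 5 counts), a log2 change of 8.32. The sperm pump subunit thus stood above the chromatin remodelling subunit in both hm5C RIP libraries, with the wider gap in replicate 2. Mbp had 157 and 180 CPM in hm5C RIP, against 0.646 and 0.205 CPM in RIP input (3 counts and 1 count), a log2 change of 8.33. Hivep1 had 130 and 152 CPM in hm5C RIP, against 0.862 and 0.614 CPM in RIP input (4 and 3 counts), a log2 change of 7.32. Duox2 was the lowest of the 10, with 87.0 and 91.9 CPM in hm5C RIP, against 0.431 and 0.614 CPM in RIP input (2 and 3 counts), a log2 change of 7.13. For these 5 genes, hm5C RIP rested on 136 to 1129 counts, so the size of the ratio is limited by the input.

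The replicates ranked the genes much alike. The ratio of hm5C RIP replicate 2 to replicate 1, in CPM, had a median of 1.08 over the 10 genes and ran from 0.593 for Neurl3 to 1.32 for Atp1a4. Over the 185 other features with at least 100 counts in both libraries the median ratio was 0.900, with a range of 0.343 to 1.99. In the fit across all features, 10 of the 10 were called higher and none had overlapping groups. Of all 2081 features tested, 33.0% were called higher at an adjusted p of 0.05, 18.9% were called lower and 45.1% were higher with no overlap, but as this contrast chose the genes, nothing is read from the count.

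The rule describes the 10 genes as the largest rises, which the values bear out only in part. In log2 change, 86 other tested features stood at or above Duox2, 60 of them protein-coding. Of the 86, 65 had 0 counts in both inputs, and 8 had counts in both. The first of those at 0 was Olfr215, an olfactory receptor gene, with 121 and 250 counts in hm5C RIP and a fitted log2 change of 11.19, which is no bound on the true ratio. Among features with counts in both inputs, 18 stood at or above the lowest of the 10 genes, the 10 themselves included. Slc2a8, a sugar transporter gene that is not among the 10, had 2741 and 2339 CPM in hm5C RIP, against 12.1 and 5.32 CPM in RIP input, a log2 change of 7.99. The lowest of the 10 genes were Hivep1 at 7.32 and Duox2 at 7.13. Next below, called and with no overlap, were the coding genes Twist2 at 7.12, Pcnx and Uqcc2 at 7.11, and Tnni1 and Ntng2 at 7.10. Twist2, Tnni1 and Ntng2 had 0 counts in both inputs, so their values are no bound on the true ratio either.

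Most other genes listed for each family and pathway were low in hm5C RIP. Of 67 relatives and partners, chosen by family and not by their values, 54 had any RIP count, 64 were below 10 CPM in both hm5C RIP libraries and 25 had no count in either. Low counts were common there: 10908 and 11564 of the 53900 features had any count in hm5C RIP replicates 1 and 2. Few were deep enough to test: 4 of the 67 entered the fit, 0 were higher and 0 lower at an adjusted p of 0.05 (edgeR quasi-likelihood test), with a median log2 change of -0.02 beside 0.15 over all 2081 features. The 3 exceptions above 10 CPM were Kitl, Smarca2 and Neurl4.

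The result for tested relatives depended on scaling. With Acsl6 left out and libraries scaled by size alone, Kit (log2 change 1.73), Smarcc1 (1.71) and Kitl (0.88) were called higher, but the median of all features was then 1.99, above each of them. For Kitl this is opposite in sign to its change under TMM. Neurl4 did not enter the main fit. With all 10 genes left out and library size alone it was called higher (log2 change 3.68, edgeR adjusted p = 0.000566). The median of all features was then 2.03. Under TMM with all 10 left out Neurl4 did not pass (1.988, edgeR adjusted p = 0.0554). Without hm5C RIP replicate 2, which leaves replicate 1 alone in its group, its log2 change was 3.20.

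Within families the contrast was one gene against its closest kin. The 6 other acyl-CoA synthetase genes summed to 0.639 and 0.476 CPM (1 count each) in hm5C RIP and to 0.646 and 1.02 CPM in RIP input, whereas Acsl6 had 551694 and 606068 CPM in hm5C RIP. The 17 other aldehyde dehydrogenase genes summed to 7.67 and 4.76 CPM in hm5C RIP and to 7.76 and 6.75 CPM in RIP input. The 8 relatives of Duox2 in the Duox and Nox group had 1 and 1 counts in hm5C RIP and 0 in both inputs, and Duox1 had none in any RIP library. Of the myelin genes, the 8 listed beside Mbp summed to 0.639 and 0.952 CPM in hm5C RIP and to 1.94 and 3.27 CPM in RIP input. Both other HIVEP genes together had 8 and 5 counts in hm5C RIP and 7 and 10 in the deeper RIP inputs. The listed relatives of these genes thus had few reads, as did most features in hm5C RIP. The 10 genes were chosen for their high reads there, so a gap from unselected relatives was built in and is not a test.

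The 3 relatives above 10 CPM did not share the pattern of the 10 genes. Kitl, the ligand of the receptor Kit, had 80.6 and 118 CPM in hm5C RIP, against 141 and 125 CPM in RIP input, a log2 change of -0.63 that did not pass the test (edgeR adjusted p = 0.0779). It passed as lower with no filter (-1.25), without RIP input replicate 2 (-1.15), without hm5C RIP replicate 2 (-0.86), and under TMM with Acsl6 (-0.78) or all 10 genes (-0.86) left out. Smarca2, a remodelling ATPase, had 38 and 2 counts in hm5C RIP and 2 and 3 in RIP input. Neurl4, a neuralized family gene, had 17 and 3 counts in hm5C RIP and 6 and 4 in RIP input. In Smarca2 and Neurl4 the high value was in hm5C RIP replicate 1 only. The 10 genes were high in both replicates, but they were chosen for their rise there, so this difference is not a test.

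**Figure D2:**
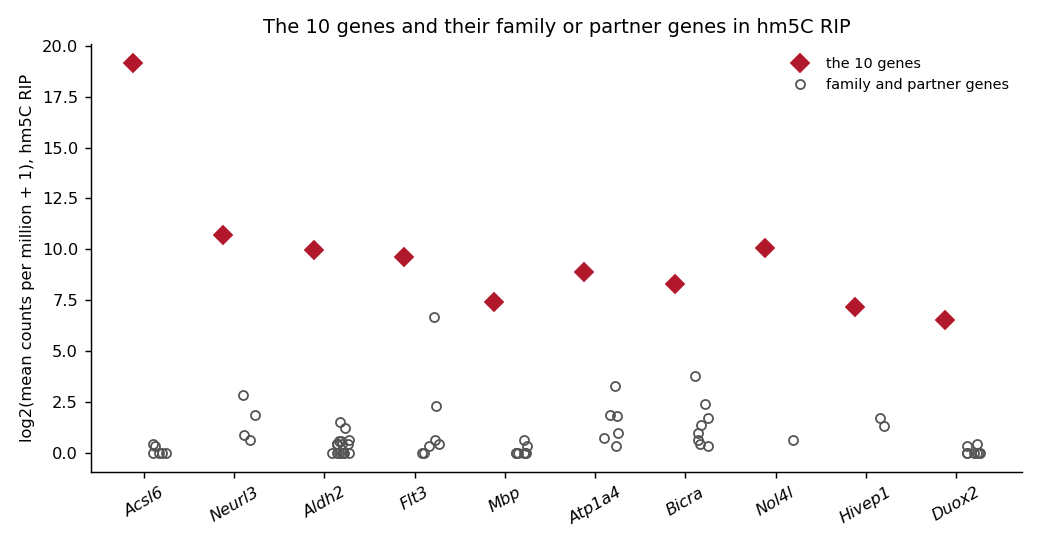
The 10 genes and the 67 relatives and partners grouped by family, as log2(mean CPM + 1) over the 2 hm5C RIP libraries. Each of the 10 genes (diamonds) stands above its relatives (open circles), and Kitl is the highest relative, with up to 118 CPM in one hm5C RIP library.

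The tissues in which some of the genes are best known were scarcely seen through their markers. The 9 oligodendrocyte markers, beside Mbp, summed to 3.84 and 3.33 CPM in hm5C RIP and 5.17 and 5.93 CPM in RIP input, and 6 of the 9 were at 0 in both hm5C RIP libraries. The 8 blood progenitor markers, beside Flt3, summed to 2.56 and 2.38 CPM in hm5C RIP and 1.51 and 3.07 CPM in RIP input, with 4 of the 8 at 0 in both hm5C RIP libraries. The 7 sperm markers, beside Atp1a4, were all at 0 in hm5C RIP, where 3 counts would be 1.92 and 1.43 CPM. The 7 thyroid markers, beside Duox2, summed to 22.4 and 20.5 CPM in hm5C RIP and 16.8 and 18 CPM in RIP input, most of it from the transcription factor Foxe1 with 25 and 40 counts in hm5C RIP and 73 and 83 in RIP input. The summed markers of these cells thus reached at most 22.4 CPM in an hm5C RIP library. The 10 genes were chosen for their rise in hm5C RIP, so their gap from such markers is not a test. Carry-over from other cells was not tested. The liver and fibroblast markers are given above. Among the 13 embryonic stem cell markers, 8 were tested, 0 were higher and 2 were lower by edgeR's quasi-likelihood test, beside 18.9% of all features called lower. They were Tfcp2l1 (log2 change -2.38, adjusted p = 0.0078) and Esrrb (-1.80, adjusted p = 0.0394). Neither was called with Acsl6 left out and libraries scaled by size alone (-0.93 and -0.32), and Esrrb was also not called by library size alone (adjusted p = 0.0642), with DESeq2 (0.208), without either RIP input library or without hm5C RIP replicate 2 (0.100 to 0.465).

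Genomic neighbours of the 10 genes had few or no counts in hm5C RIP. How reads shared by overlapping genes were assigned is not given, and low counts were common in these libraries. The counts therefore do not show how far the reads of a gene extend. The annotation had 9 genes overlapping 6 of the 10, and the 6 of those that were counted had 0 counts in both hm5C RIP libraries. Gm12224, a noncoding RNA gene inside Acsl6, was one of them. Of the 20 nearest genes on either side, 16 were counted and 0 reached 10 counts in either hm5C RIP library. Asxl1, a chromatin gene beside Nol4l, came closest with 3 and 8 counts in hm5C RIP and 13 and 19 in RIP input. Duoxa2, the maturation factor of Duox2, starts 160 bp from it and had 1 and 0 counts in hm5C RIP and 0 in both inputs.

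Other features had a profile like that of the 10 genes. Over the 12 RIP and CLIP libraries, on the log2(CPM + 1) scale, the tested protein-coding genes closest to the mean of the 10 were Gkn1 (Pearson r = 0.986), Tbx19 (0.985), Veph1 (0.983), Rhox2e (0.983) and Olfr749 (0.982). These 5 were chosen for that likeness, all had 0 counts in both RIP inputs, and the 12 points share their library depths. The 10 genes were less like each other, from r = 0.679 for Hivep1 and 0.700 for Bicra to 0.952 for Atp1a4 and 0.953 for Neurl3 with the mean of the other 9, Acsl6 at 0.712 included. The 6 lowest values belong to Hivep1, Bicra, Acsl6, Mbp, Aldh2 and Nol4l, the genes that had enough reads to be tested in CLIP.

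The inputs of the 2 assays placed the genes very differently. RIP input was made with a small RNA kit and CLIP input with a custom CLIP protocol, from other cells, so their values are set side by side and not tested. Acsl6 had a mean of 2110 CPM in RIP input and 22.4 CPM in CLIP input, a ratio of 94.1. The ratios of the other genes were 2.78 for Flt3, 2.58 for Neurl3, 1.92 for Atp1a4, 0.172 for Duox2, 0.0984 for Nol4l, 0.0603 for Aldh2, 0.0289 for Mbp, 0.0235 for Hivep1 and 0.0192 for Bicra. Neurl3, Flt3, Atp1a4 and Duox2 had under 10 CPM in CLIP input, so the median given next is no yardstick for them. Over all CLIP inputs, Neurl3, Flt3 and Atp1a4 had 6, 12 and 5 counts, so their ratios rest on few reads. The median ratio of the 8643 protein-coding genes with at least 10 CPM in CLIP input was 0.0131. Acsl6 therefore stood out before immunoprecipitation, in the RIP inputs, and 1 of those genes had a larger ratio, Tlx3, with 27790 CPM in RIP input and 24.6 CPM in CLIP input, named after its values were seen.

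**Figure D3:**
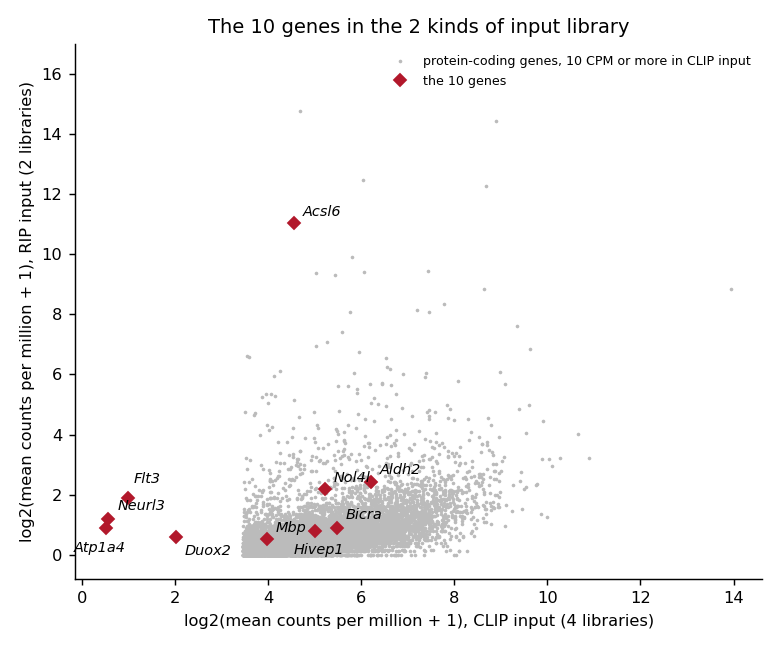
Mean CPM in RIP input against mean CPM in CLIP input, both as log2(CPM + 1), with the 10 genes marked over protein-coding genes of at least 10 CPM in CLIP input. Acsl6, at 2110 CPM in RIP input and 22.4 CPM in CLIP input, stands far from the bulk, and Neurl3, Flt3 and Atp1a4 are at the far left, with under 1 CPM in CLIP input.

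TET2 CLIP, which played no part in choosing the genes, asks whether their RNA was recovered with tagged TET2. None of the 10 was called higher or lower in TET2 CLIP than in CLIP input. Filtering on low counts left 6 of the 10 in the test: Acsl6, Aldh2, Mbp, Bicra, Nol4l and Hivep1. The 4 TET2 CLIP and 4 CLIP input libraries overlapped for all 10 genes. Of all tested features, 6.98% were higher and 7.57% lower with no overlap. Those shares cover tested features only, so they are no background for the genes that the filter removed. At an unadjusted p of 0.05, 0 of the 6 passed, the lowest p being 0.0825, and DESeq2 called 0. Over all 10334 features tested, 8.99% were called higher and 5.83% lower by edgeR's quasi-likelihood test, and the median log2 change of the 6 was -0.01 beside -0.03 over all features. With so few genes, the absence of calls and of gaps between groups is not set apart from these shares.

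Acsl6, so dominant in hm5C RIP, was a low-count gene in CLIP. It had 22.6 and 0 CPM in TET2 CLIP of clone 65 and 28.6 and 19.6 CPM in that of clone 75, against 26.7, 27.5, 19.7 and 15.8 CPM in the CLIP inputs. The groups overlapped, and one TET2 CLIP library of clone 65 had no read, where 3 counts would be 13.4 CPM. Its log2 change over both clones was -0.21, with an SE of 0.448 (edgeR adjusted p = 0.813), and 2 SE either way reached from -1.11 to 0.69. The change depended on that library. Without TET2 CLIP replicate 1 of clone 65, which leaves the library at 0 as the only one of its group, the log2 change was -4.07, and no setting gave a call (adjusted p 0.0862 to 0.871 over 13 alternatives).

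Aldh2 and Bicra were the best measured of the 6. Aldh2 had 54.3 and 49.2 CPM in TET2 CLIP of clone 65 and 79.3 and 66.7 CPM in clone 75, against 74.7, 78.4, 62.4 and 76.4 CPM in the CLIP inputs. Its log2 change was -0.12 with an SE of 0.206 (edgeR adjusted p = 0.762), and 2 SE reached from -0.53 to 0.29. A 2-fold change either way thus lay outside that interval. Bicra had 31.7 and 31.3 CPM in TET2 CLIP of clone 65 and 61.7 and 51.0 CPM in clone 75, against 49.0, 47.4, 36.1 and 41.7 CPM in the CLIP inputs. Its log2 change was 0.10 with an SE of 0.262 (edgeR adjusted p = 0.849), and 2 SE reached from -0.43 to 0.62.

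Mbp differed widely between TET2 CLIP libraries of the same clone. It had 40.7 and 4.48 CPM in TET2 CLIP of clone 65 and 8.81 and 51.0 CPM in clone 75, against 13.2, 12.7, 23.0 and 10.1 CPM in the CLIP inputs. One library of each clone was above every input and the other below. Its log2 change was 0.93 with an SE of 0.513 (edgeR adjusted p = 0.257). Without TET2 CLIP replicate 1 of clone 75 the change was 1.35 and passed the test (adjusted p = 0.0463), whereas without replicate 1 of clone 65 it was -0.40, the range over 13 alternatives being -0.40 to 1.35 with adjusted p of 0.0463 to 0.920.

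Nol4l and Hivep1 did not pass either. Nol4l had 13.6 and 49.2 CPM in TET2 CLIP of clone 65 and 83.7 and 47.1 CPM in clone 75, against 41.5, 41.0, 24.1 and 37.8 CPM in the CLIP inputs, a log2 change of 0.48 with an SE of 0.304 (edgeR adjusted p = 0.336). Hivep1 had 13.6 and 35.8 CPM in TET2 CLIP of clone 65 and 13.2 and 31.4 CPM in clone 75, against 29.0, 38.9, 23.0 and 34.7 CPM in the CLIP inputs, a log2 change of -0.42 with an SE of 0.353 (edgeR adjusted p = 0.489). For Nol4l the TET2 CLIP libraries lay on both sides of the input range, and for Hivep1 they lay within it or below it. Over the 13 alternatives Nol4l ran from -0.28 to 0.63 and Hivep1 from -1.01 to -0.22, with no call.

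**Figure D4:**
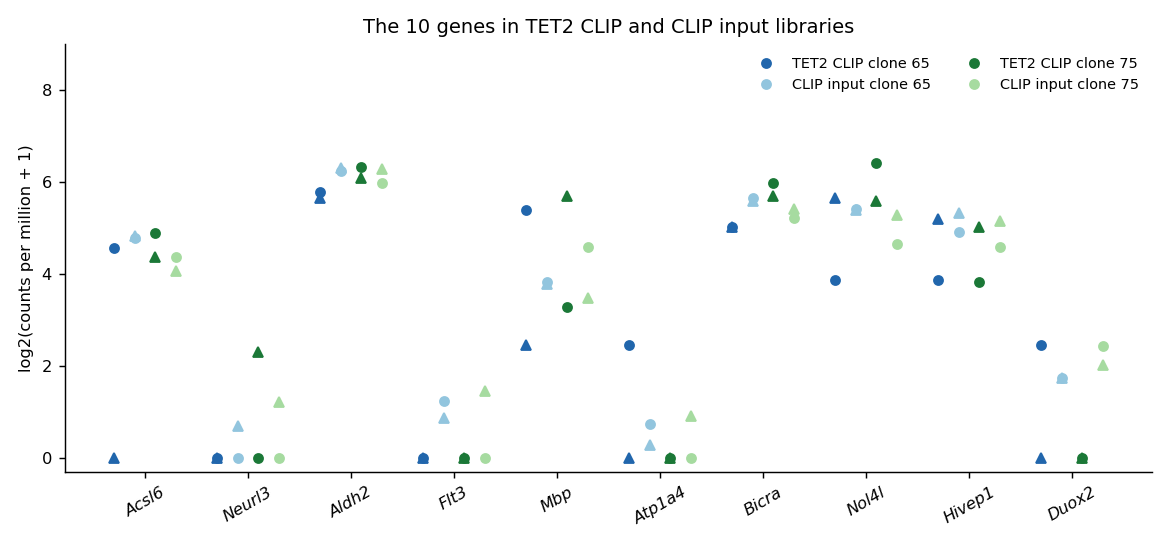
Values of the 10 genes, as log2(CPM + 1), in the 8 CLIP libraries, TET2 CLIP beside CLIP input for clones 65 and 75, with circles for replicate 1 and triangles for replicate 2. TET2 CLIP and input libraries overlap for every gene over both clones, Mbp spreads from 4.48 to 51.0 CPM within TET2 CLIP, and Neurl3, Flt3, Atp1a4 and Duox2 are at 0 in several libraries.

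The other 4 genes were too scarce in CLIP to test. Flt3 had 0 counts in all 4 TET2 CLIP libraries and 0 to 4 in the inputs, and Neurl3 had 1 count over the 4 TET2 CLIP libraries and 6 over the inputs. Atp1a4 had 1 count in TET2 CLIP and 5 in the inputs in all. Duox2 had 1 count over the 4 TET2 CLIP libraries, against 2.36 and 2.33 CPM in the inputs of clone 65 and 4.38 and 3.07 CPM in those of clone 75 (7, 11, 4 and 7 counts). As 3 counts in a TET2 CLIP library are 6.61 to 13.6 CPM, a fall or a small rise from these input levels was not detectable at this depth. Of the 4, Neurl3, Flt3 and Atp1a4 had under 2 CPM in every input of either CLIP clone.

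The clones were also compared with each other. In clone 65, the log2 changes of the 6 tested genes ran from -0.85 for Acsl6 to 1.22 for Mbp, and in clone 75 from -0.78 for Hivep1 to 0.93 for Nol4l. Nol4l in clone 75 came nearest to a call but did not pass (edgeR adjusted p = 0.0729). The difference, clone 75 minus clone 65, ran from -0.71 for Hivep1 to 1.29 for Acsl6, and none passed (edgeR adjusted p 0.471 to 0.956, lowest unadjusted p 0.117). Over all features, 0.329% were called higher in clone 75 and 2.22% lower.

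**Figure D5:**
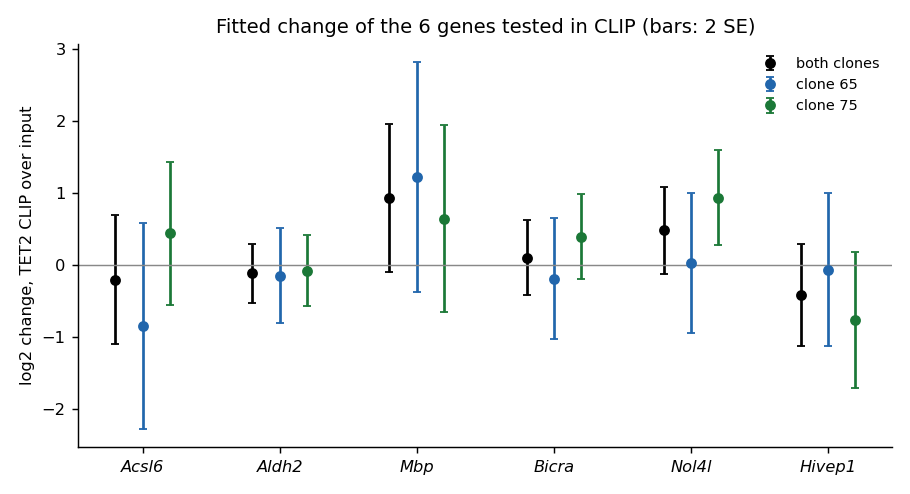
Log2 change in TET2 CLIP over CLIP input for the 6 tested genes, over both clones and for each clone, with bars of 2 SE from the edgeR fit. The values over both clones run from -0.42 (Hivep1) to 0.93 (Mbp), and each of those bars includes 0.

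The families were tested in CLIP more often than in RIP. Of the 67 relatives and partners, 29 entered the CLIP test, where 1 was higher and 3 lower at an adjusted p of 0.05 (edgeR quasi-likelihood test), beside 8.99% higher and 5.83% lower over all features, and their median log2 change was -0.20. With so few calls the count is not set apart from that background. Hivep2, a relative of Hivep1, was higher by a log2 change of 1.88 (adjusted p = 0.0458), with 58.8 and 4.48 CPM in TET2 CLIP of clone 65 and 15.4 and 0 CPM in clone 75, against 3.29 to 8.25 CPM in the CLIP inputs. The call was fragile. It was lost with no filter (adjusted p = 0.0592), with DESeq2 (0.150) and without any one of the CLIP input libraries (0.113 to 0.206), and the change was 0.32 without TET2 CLIP replicate 1 of clone 65 and -1.74 without replicate 1 of clone 75, which leaves a library at 0. Kitl was lower by a log2 change of -3.72 (adjusted p = 1.70e-05), with 0 and 8.95 CPM in TET2 CLIP of clone 65 and 2.203 and 0 CPM in clone 75, against 27.4 to 46.6 CPM in the CLIP inputs. Neurl4 (-0.81, adjusted p = 0.0290) and Smarcd1 (-1.01, adjusted p = 0.0246), a BAF subunit, were also lower. The calls of Hivep2, Neurl4 and Smarcd1 were lost with the replicate number as a block (edgeR adjusted p 0.120, 0.0518 and 0.0716). Neurl4 lost the call without TET2 CLIP replicate 1 of clone 75 (adjusted p = 0.0801), and Smarcd1 lost it without CLIP input replicate 2 of clone 65 (0.0745) or of clone 75 (0.0642).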

How the data were processed

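RNA of mouse embryonic stem cells was counted per gene in hm5C RIP and RIP input (2 libraries each) and in TET2 CLIP and CLIP input of clones 65 and 75 (2 libraries each). As deposited, the tables hold raw counts per gene, whole numbers whose totals differ between libraries. Per the submitters' processing notes, reads went through STAR 2.5.3a, Bowtie2 2.2.6, cutadapt and UMI-tools, on build mm10. How reads were assigned to genes and whether strand was used is not given in the sources used here, so reads of a gene and of an antisense partner could not be told apart. Rows for tRNA genes held 0.159 to 1.73% of counts. Symbols came from a table of gene names and matched 53274 of the 53465 Ensembl genes, and positions, biotypes and start-site windows came from RefSeq tables for GRCm38.p6, which matched 37599 by symbol. The small RNA libraries were not analysed here.

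CPM are per-million shares of all counts in a library, and log2 changes, SE and p-values come from edgeR 4.0.16 (R 4.3.3), with TMM factors, filterByExpr, a robust quasi-likelihood fit over each whole table and Benjamini-Hochberg adjustment at 0.05. The 8 CLIP libraries were fitted together, testing the mean of the clones, each clone and their difference. Because the count filter asks for a minimum in only 2 libraries, a feature at 0 in one group could enter through the other. Counts were simulated with 200 changed features, of which 164 passed the filter in RIP and 185 in CLIP. Of those that passed, the RIP fit (1748 features) recovered 16.2% of 2-fold and 83.3% of 4-fold changes. The CLIP fit (9616 features) recovered 58.8% and 94.0%. The simulation gave all libraries the same mean profile before the changes, without the gap in Acsl6 between hm5C RIP and input, so recovery in the real RIP data may differ. Alternatives were DESeq2 size factors, DESeq2 1.42.0 with its Wald test, library size alone, no filter, the replicate number as a block, Acsl6 or all 10 genes left out, and each library left out. The share of counts without each hm5C RIP library was added after seeing the data.

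The genes named were the 10 genes, features at or above the lowest of them in log2 change (86, of which a few are named) and the 5 coding genes below it, the 5 most alike in profile, neighbours, and family and marker genes past a test or above 10 CPM. Slc2a8, Tlx3, Olfr215, Asxl1 and Gm12224 were singled out after their values were seen. The 10 genes, the lists and the tests were chosen with earlier results of these data known. Not every gene this rule covers is reported here.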

Additional observations from a re-analysis of the deposited data

How the results depend on the processing

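The log2 change of each of the 10 genes in hm5C RIP stayed positive under every alternative run (9 for Acsl6, 11 for the others), the lowest being 6.50 (Duox2, no filter) and the highest 11.58 (Neurl3, Acsl6 left out and library size alone). Their share of hm5C RIP counts was 58.5% ± 3.78 (SD, n = 2), 59.2% without tRNA rows, 55.8 to 61.1% with either library left out, and 1.35% with Acsl6 left out of genes and total. Over all features, scaling by library size after leaving out Acsl6 gave 1686 higher and 88 lower in place of 686 and 394, and 1795 and 86 with all 10 left out. The median log2 change was then 1.99 without Acsl6, against 0.15, so calls of low genes in RIP depend on how Acsl6 is scaled. Leaving out each RIP library gave 336 to 745 higher and 301 to 640 lower, with 336 and 356 higher without RIP input replicate 2 and replicate 1.

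In CLIP, lower features numbered 922 by library size alone and 1871 with no filter, in place of 602. For clone 75 minus clone 65 there were 638 higher and 104 lower by library size alone and 59 and 141 with no filter, in place of 34 and 229. With each CLIP library left out, higher features ran from 680 to 907 and lower ones from 453 to 1081, and for the clone difference from 4 to 101 and from 83 to 271. Of the 10 genes, 0 to 1 were then higher (Mbp) and 0 to 0 lower. The causes were not tested.

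The replicate numbers gave no sign of pairing: the deviations of same-numbered libraries correlated at 0.0245 in RIP, -0.00736 in clone 65 and 0.0191 in clone 75. Counting noise in low features can also hold such values near 0, so this cannot exclude pairing. With the replicate number as a block, 654 and 384 features were higher and lower in RIP, 772 and 431 in CLIP, and 13 and 160 in the clone difference, and 0 of the 10 genes were called in CLIP. Calls lost under the block were those of Hivep2, Neurl4 and Smarcd1 in CLIP (adjusted p 0.120, 0.0518 and 0.0716) and of Esrrb in RIP (0.0703), among the named relatives and markers refitted. Few input reads, at most 6 per library for 6 of the genes, and low TET2 CLIP depth limit the ratios.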
